A study of Sus scrofa with 5 samples.

Results

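Bulk RNA sequencing was done on core biopsies of a pig kidney transplanted into a human recipient. The genes described here are those whose counts in the human (hg38) gene table appeared in the 48 h biopsy over an almost empty control background. A gene was included when it had at most 3 counts in both control libraries together and 10 or more at 48 h. This left 1123 of 59198 human-table genes, or 1.9%. The same rule kept 2.83% of the 39622 genes that met the control limit. The rule used the 48 h and control counts, so the difference between them is given as a description with no test. As background to that contrast, edgeR called 43.8% of the 19443 human-table genes tested higher at 48 h than in the controls and 2.07% lower, a split that was 4464 against 3288 genes with TMM factors. Levels are human-table counts per 1000000 pig-table counts of the same library, and they scale the human signal to the amount of graft RNA sequenced.

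The study set 3 xenograft biopsies, 1 each at 12, 24 and 48 h, against 2 control libraries (0 h, replicates 1 and 2) from untransplanted control kidney. The labels name pig as the organism of every library and total RNA as the material, and libraries were depleted of ribosomal RNA. They give neither the genotype of the donor pig nor any drug given to the recipient, and they do not say whether the controls came from separate animals. The protocol describes core biopsies, while the cell type entry reads as dissociated cells. Each time after transplantation is a single core from a single graft, so change over time and difference between cores cannot be told apart.

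A kidney graft is built of donor cells, and after reperfusion the recipient's blood flows through it. Monocytes, macrophages, neutrophils and natural killer (NK) cells are the recipient cells that classically enter a xenograft first, before or alongside T cells. Activated NK and T cells release interferon gamma, which makes macrophages and other cells produce chemokines such as CXCL9, CXCL10 and CXCL11, the tryptophan-degrading enzyme IDO1, antigen presentation genes and guanylate-binding proteins. Pig and human genes are often alike in sequence, so a pig read can be counted on a human gene. The control kidneys show this for graft genes that were active in them. A human read can likewise be counted on a pig gene, which control kidneys without recipient cells cannot show.

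The human table held 18766583 counts at 48 h, against 15056444 and 13385414 in the controls, from kidney that was not transplanted. Pig-table totals lay between 56129926 and 71108823 counts in the 5 libraries. The chosen genes together had 521 and 416 counts in controls 1 and 2, 97744 at 12 h, 69846 at 24 h and 140990 at 48 h. In the same order, the sums were 7.90, 5.85, 1546, 1056 and 2512 counts per 1000000 pig-table counts. They made up 0.00346% and 0.00311% of the human table in the controls, 0.495% at 12 h, 0.364% at 24 h and 0.751% at 48 h. Nearly all of the human table in every library therefore lay in genes outside the rule. The share of pig-table counts in mitochondrial genes was 11.8% at 48 h, against 21.9% and 33.4% in the controls, so part of the scale of the controls was set by mitochondrial RNA. In bulk tissue, fewer cells of a type and less RNA per cell cannot be told apart.

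Of the 3 genes proposed as markers of human cells, only IDO1 met the rule. It had 0 counts in both controls, 63 at 12 h, 50 at 24 h and 574 at 48 h. LYZ, the lysozyme of monocytes and granulocytes, missed the control limit with 1 and 4 counts in the controls, and had 10253 counts at 12 h, 7356 at 24 h and 12240 at 48 h. HLA-DPA1, a chain of an HLA class II molecule, missed it with 1 and 3 counts in the controls, and had 2117, 1921 and 6342 counts at 12, 24 and 48 h. All 3 were thus near 0 in the controls and far higher in every biopsy, and LYZ and HLA-DPA1 entered when the limit was raised to 10 counts. Just inside the lower limit, 59 genes had exactly 10 counts at 48 h, while 95 genes with 9 counts lay just outside. Just inside the control limit, 147 genes had 3 control counts, while 109 genes with 4 lay just outside.

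Counts at 48 h ran between 10 and 8803 with a median of 26. There were 420 genes with 10 to 19 counts, 482 with 20 to 99 and 221 with 100 or more. The 20 genes with the most counts held 36.4% of the sum. In the controls, 620 of the 1123 genes had no count at all, 216 had 1, 140 had 2 and 147 had 3. Counts depend on transcript length, which the tables do not give, so the order of counts between genes is not an order of expression.

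Genes were grouped in lists, some of which hold markers of a cell type and others a gene family. The largest shares of a list inside the rule were in the GIMAP family of GTPases, with 7 of 7, the LILR, SIGLEC and C-type lectin receptors of myeloid cells, with 19 of 21, and the Fc receptors, with 6 of 7. NK and cytotoxic genes contributed 17 of 25, neutrophil genes 21 of 35 and monocyte and macrophage genes 10 of 28. With more than 3 control counts, 7 of these 25, 5 of these 35 and 17 of these 28 failed the rule, LYZ among the last. So did 17 of 20 common leukocyte genes. Shares of lists thus depend on the control limit and do not rank cell types by content. T cell genes contributed 6 of 29 and B and plasma cell genes 2 of 20. Of the smaller groups, common leukocyte genes contributed 3 of 20, dendritic cell genes 5 of 17, pattern recognition and inflammasome genes 7 of 20, checkpoint genes 5 of 12, mast cell, basophil and eosinophil genes 2 of 13, and HLA class I genes 1 of 7 (MICB). Long noncoding RNAs gave 7 of 16. Plasma proteins made in liver gave 2 of 16, SERPINA1 with 2306 counts at 48 h and HP with 12. SERPINA1, an inhibitor of neutrophil elastase, is also made by monocytes and neutrophils. None of 13 endothelial, 20 kidney epithelial and 12 fibroblast genes met the rule, and all 45 failed it on the control side, with more than 3 counts there. The rule therefore cannot show whether human endothelial, epithelial or stromal RNA was present.

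**Figure D1:**
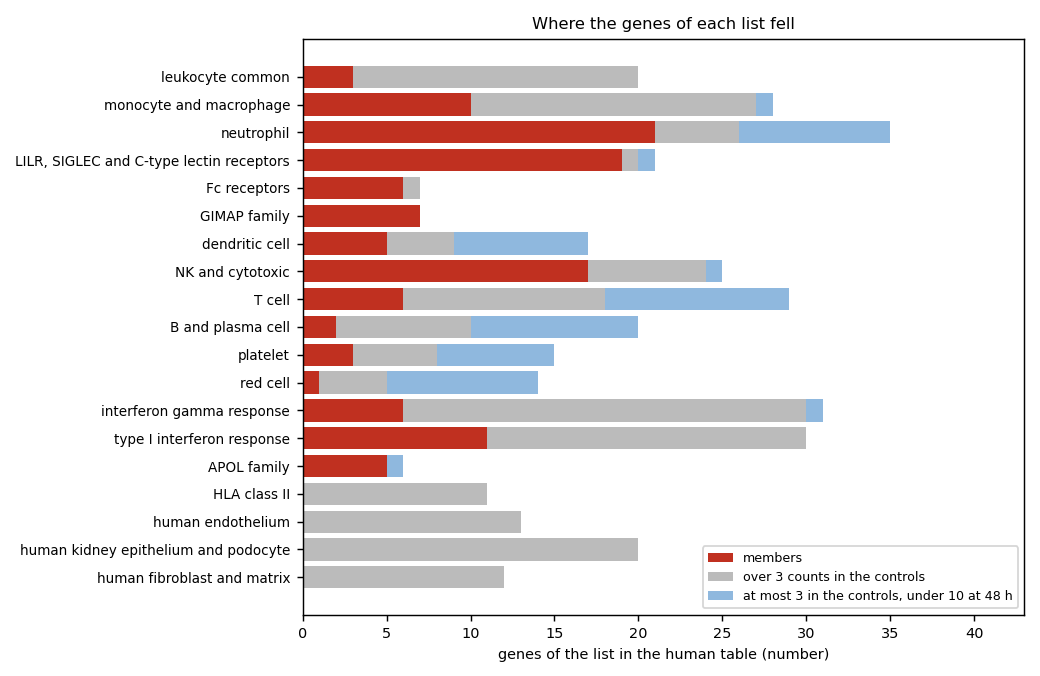
Number of genes of each list (horizontal axis) that met the rule (red), that had more than 3 counts in the controls (grey), or that had at most 3 there and under 10 at 48 h (blue). The LILR, SIGLEC and C-type lectin list is red for 19 of 21 genes, while the endothelial, kidney epithelial and fibroblast lists are grey throughout.

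Mitochondrial and myeloid genes gave the highest counts at 48 h. FCGR3A, the low-affinity IgG receptor CD16a of NK cells and monocytes, had 2 and 0 counts in the controls, 2961 at 12 h, 2376 at 24 h and 4339 at 48 h. Its neutrophil copy is nearly identical in sequence, so reads may be split between them and the gene of origin is uncertain. MS4A6A, a membrane protein of monocytes and macrophages, had 0 and 2 counts in the controls, 1958 at 12 h, 1376 at 24 h and 2709 at 48 h. LST1, a leukocyte protein encoded in the HLA region, had 1 count in each control, 739 at 12 h, 591 at 24 h and 1246 at 48 h. All 3 were lowest of the biopsies at 24 h and highest at 48 h. The rule itself fixed the gap between the 48 h biopsy and the controls.

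The scavenger receptor MARCO (609 counts), the costimulatory ligand CD86 (561) and MS4A4A (522) followed the same course, against 1 to 3 control counts each. CD14, the lipopolysaccharide coreceptor, differed in its course, with 1 count in each control, 457 at 12 h, 748 at 24 h and 727 at 48 h. Its scaled level was lowest at 12 h and stood 1.15 times as high at 48 h as at 24 h (95% interval 1.03 to 1.27, counting error only). With scaling by human-table totals that ratio was 0.994, so its side of 1 depended on the scaling. All such intervals are exact and conditional on the summed counts, and they hold no error between biopsies, since each time was sampled once. Monocyte and macrophage genes outside the rule had 48 h to 24 h ratios between 1.01 (VCAN) and 3.63 (MS4A7). The 10 inside it had a median ratio of 2.40. TYMP, which degrades thymidine, and ADA2, a secreted adenosine deaminase of myeloid cells, stood above that. TYMP had 1 and 0 counts in the controls, 865 at 12 h, 490 at 24 h and 2213 at 48 h, a ratio of 5.32 (4.83 to 5.88). ADA2 had 1 and 0, 625, 508 and 1772 counts in the same order, a ratio of 4.11 (3.72 to 4.55).

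Inhibitory and activating receptors that tune myeloid cells were a second large block. LILRB2 and LILRB1 bind HLA class I and carry inhibitory signals. LILRB2 had 0 and 1 counts in the controls, 810 at 12 h, 434 at 24 h and 860 at 48 h. LILRB1 had 1 and 0 counts in the controls, 449 at 12 h, 286 at 24 h and 677 at 48 h. LAIR1, an inhibitory collagen receptor, had 0 control counts and 412, 249 and 629 counts at 12, 24 and 48 h. The block had lowest values at 24 h throughout these examples, and its 48 h to 24 h ratios had a median of 2.24 over the 18 genes with 50 or more counts at those times together. LILR genes resemble each other closely, so single values within that family are uncertain. None of the LILR, LAIR1 or SIGLEC genes of this list that were inside the rule had a pig-table gene of the same symbol. CLEC7A, the beta-glucan receptor dectin-1, did have one, with 43 and 42 pig counts in the controls, where the human gene had 2 and 0. Human CLEC7A then had 339, 220 and 493 counts at 12, 24 and 48 h.

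Neutrophil genes inside the rule differed in course from most other genes inside it. S100A9 and S100A8 encode the subunits of calprotectin, an abundant protein of neutrophils and monocytes. S100A9 had 1 count in each control, 7389 at 12 h, 4550 at 24 h and 5107 at 48 h. S100A8 had 2 and 1 counts in the controls, 4287 at 12 h, 2486 at 24 h and 2586 at 48 h. Both were highest at 12 h, with scaled levels at 48 h that were 0.779 and 0.680 of those at 12 h. The interleukin-8 receptors CXCR1 and CXCR2, which guide neutrophils to chemokines, fell short of their 24 h levels at 48 h. CXCR2 had 0 control counts, 163 at 12 h, 195 at 24 h and 100 at 48 h, a 48 h to 24 h ratio of 0.605 (0.470 to 0.773). CXCR1 had 2 and 0 control counts, 169 at 12 h, 146 at 24 h and 102 at 48 h, a ratio of 0.824 (0.633 to 1.07), whose interval includes 1. IL1R2, a decoy receptor for interleukin-1, had 444 counts at 12 h, 304 at 24 h and 217 at 48 h, against 0 and 1 in the controls. Its level at 48 h was 0.551 of that at 12 h.

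Across the 13 neutrophil genes with enough counts, the median 48 h to 24 h ratio was 1.06, with single genes between 0.442 and 1.95, while the median over all 464 genes with enough counts was 2.64. The median 48 h to 12 h ratio was 0.680 for neutrophil genes and 1.75 over all. Summed over the list, neutrophil counts per 1000000 pig-table counts were 228.3 at 12 h, 135.7 at 24 h and 176.7 at 48 h. With scaling by human-table totals, the neutrophil median ratio to 24 h was 0.918, so its side of 1 depended on the scaling, while the median over all genes with enough counts was 2.29. Formyl peptide receptors, which monocytes share with neutrophils, had the highest ratios to 24 h of these 13 neutrophil genes. FPR1 had 1021, 627 and 987 counts at 12, 24 and 48 h, against 2 and 0 in the controls, and FPR2 had 309, 160 and 265, against 0 in both. Of granule protein genes, MPO had 16 counts at 48 h and CAMP 11, against 1 summed control count for MPO and 0 for CAMP. Another 9 of the 35 neutrophil genes had at most 3 control counts but under 10 at 48 h. Their counts at 48 h lay between 1 (DEFA4, TCN1) and 5 (PGLYRP1). ELANE and AZU1 had 3 each, and PRTN3 and CTSG 2 each. LCN2 and MMP9, granule protein genes just outside the rule with 4 summed control counts each, differed in course. LCN2, which injured kidney tubules also express, had 45, 42 and 143 counts at 12, 24 and 48 h, and MMP9 had 64, 51 and 52.

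Of the platelet and red cell genes, 3 of 15 and 1 of 14 were inside the rule. The platelet genes ITGB3 and SELP had 14 counts each at 48 h, which graft reads could have left. Pig ITGB3 had 2594 counts at 48 h, against 282 and 185 in the controls, and pig SELP had 389, against 53 and 34. PPBP, the platelet basic protein, had 1 and 0 counts in the controls, 129 at 12 h, 116 at 24 h and 49 at 48 h. Its level at 48 h was 0.498 of that at 24 h (0.349 to 0.701). HBA2, an alpha globin gene with a nearly identical copy, had 1 and 2 control counts and 130, 102 and 116 counts at 12, 24 and 48 h. The HBA2 level at 48 h was 1.34 times that at 24 h (1.02 to 1.77). Both genes were thus high at 12 h, and PPBP was lowest of the biopsies at 48 h. The beta globin gene HBB, outside the rule with 26 and 16 control counts, had far more counts, with 4964 at 12 h, 3098 at 24 h and 2881 at 48 h. These genes come with circulating blood, and the amount of blood left in each core was not measured.

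**Figure D2:**
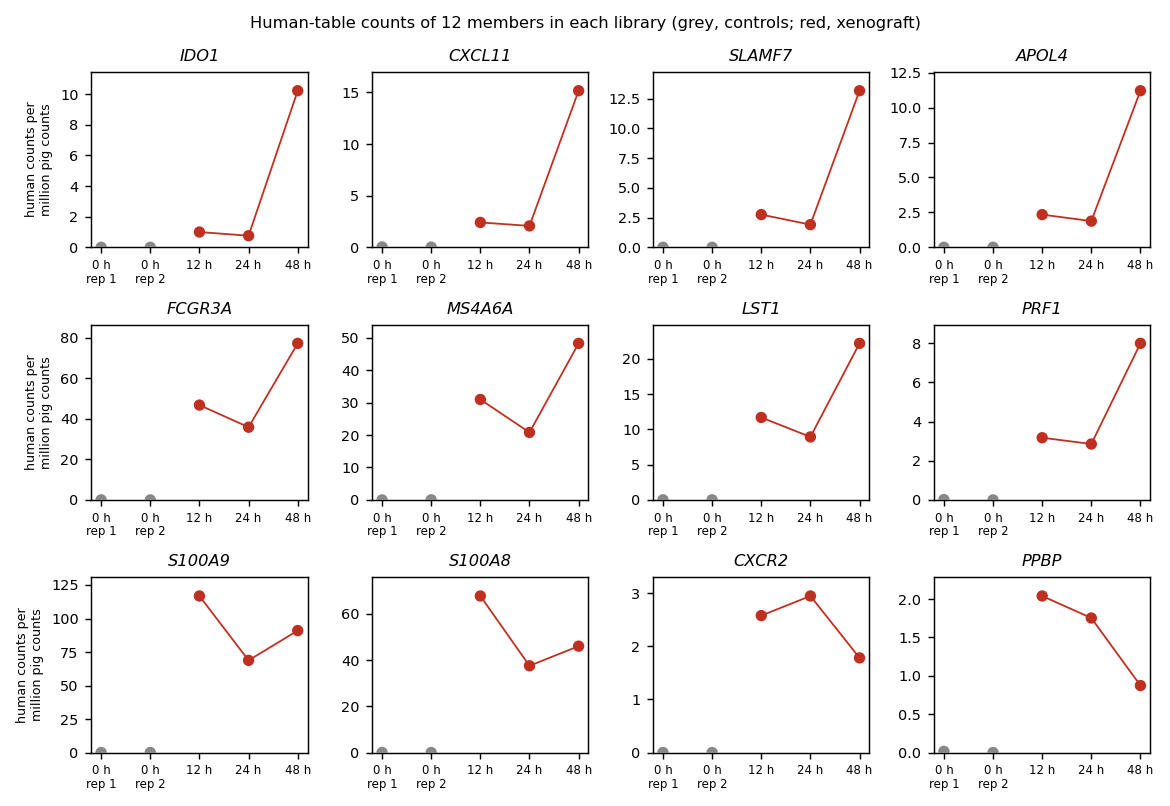
Human-table counts per 1000000 pig-table counts (vertical axes, each panel with its own scale starting at 0) of 12 genes in the 2 control libraries (grey) and the xenograft biopsies at 12, 24 and 48 h (red, joined by a line). Controls lie at or near 0 in every panel. IDO1, CXCL11, SLAMF7 and APOL4 are highest at 48 h by a wide margin, S100A9 and S100A8 are highest at 12 h, and CXCR2 and PPBP are lowest of the biopsies at 48 h.

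Cytotoxic lymphocyte genes were present from 12 h. PRF1, the pore-forming perforin, had 1 and 0 counts in the controls, 201 at 12 h, 189 at 24 h and 449 at 48 h. GNLY, the antimicrobial granulysin, had 0 in both controls, 179 at 12 h, 172 at 24 h and 389 at 48 h. KLRD1, the CD94 chain of inhibitory and activating NK receptors, had 0 in both controls, 187 at 12 h, 131 at 24 h and 304 at 48 h. The 3 genes had 48 h to 24 h ratios between 2.67 and 2.80, near the 2.64 of all genes with enough counts. NKG7, a granule membrane protein, had 187, 134 and 301 counts at 12, 24 and 48 h and 0 in both controls. The protease GZMA stood apart with 41, 27 and 124 counts, against 0 and 1 in the controls, and a ratio of 5.41 (3.55 to 8.54). FGFBP2 (1.49) and CST7 (1.44), both expressed by mature NK cells, had the lowest ratios to 24 h. This ranking covers the 11 genes of the list inside the rule with enough counts.

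T cell genes were few. CD4, which macrophages also carry in humans, had 1 and 0 counts in the controls, 306 at 12 h, 238 at 24 h and 728 at 48 h. CD247, the zeta chain shared by T cell receptors and NK receptors, had 46, 49 and 110 counts at 12, 24 and 48 h, against 1 in each control. CD2, an adhesion receptor of T and NK cells, had 29, 22 and 75, against 1 and 0. TRAC, the constant region of the T cell receptor alpha chain and specific to T cells, had 1 count at 12 h, 0 at 24 h and 18 at 48 h, against 2 and 0 in the controls. CD8A had 14, 6 and 16 counts and 0 in both controls. The T cell genes inside the rule with the most counts were thus those that other cells also express. Of the 29 T cell genes, 12 had more than 3 control counts and 11 had under 10 counts at 48 h. Some of the 12, named after their values were seen, had more counts at 48 h than TRAC. TRBC2, a constant region of the T cell receptor beta chain, had 16, 15 and 64 counts at 12, 24 and 48 h, against 6 and 3 in the controls, and CD3E, a signalling chain of that receptor, had 16, 11 and 46, against 4 and 2. IL7R, the interleukin-7 receptor, had 9, 1 and 56, against 2 and 2. These genes, too, were highest at 48 h. The B and plasma cell genes inside the rule were CD79B, with 45 counts at 48 h, and CR2, with 37, against 0 and 2 summed control counts.

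The 6 interferon-gamma response genes inside the rule had the highest median ratio among the lists plotted. IDO1 stood 13.5 times as high at 48 h as at 24 h in scaled counts (10.1 to 18.5). CXCL11, a ligand of the receptor CXCR3 on activated T and NK cells, had 2 and 1 counts in the controls, 152 at 12 h, 137 at 24 h and 851 at 48 h, a ratio of 7.32 (6.11 to 8.84). CALHM6, a channel protein induced in macrophages, had 1 count in each control, 119 at 12 h, 101 at 24 h and 563 at 48 h, a ratio of 6.57 (5.31 to 8.20). ANKRD22 (4.37), the HLA peptide transporter gene TAP2 (3.73) and the transcription factor gene BATF2 (3.28) completed the 6 genes. All 6 were above 2.64, and their median was 5.47. Summed, they reached 53.5 counts per 1000000 pig-table counts at 48 h, against 8.77 at 24 h and 11.3 at 12 h.

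Another 24 of the 31 interferon-gamma genes had more than 3 control counts and were outside the rule. CXCL9, with 3 and 5 counts in the controls, had 699 at 12 h, 515 at 24 h and 5062 at 48 h, and CXCL10, with 12 and 4, had 1798, 1048 and 8243. Both have a pig-table gene of the same symbol, which had 2796 counts for CXCL9 and 3920 for CXCL10 at 48 h. Human-table counts at 48 h therefore exceeded pig-table counts for both chemokines. All 11 HLA class II list genes were outside the rule for the same reason, among them HLA-DRA with 1858 and 1446 control counts, in kidney that held no recipient cells.

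Genes of the type I interferon and antiviral groups followed. IFI16, a DNA sensor, had 0 in both controls, 435 at 12 h, 332 at 24 h and 880 at 48 h. OAS3, which makes the activator of RNase L, had 0 in both controls, 108 at 12 h, 76 at 24 h and 344 at 48 h, a ratio of 5.34 (4.15 to 6.93). The type I list had 11 of 30 genes inside the rule and a median ratio of 3.83, and the restriction factor list, with the cytidine deaminases APOBEC3C and APOBEC3G, had 9 of 16 and a median of 3.10. The APOL family of apolipoprotein L genes, of which APOL1 lyses trypanosomes and several respond to interferon, had 5 of 6. APOL3 had 355, 221 and 1021 counts at 12, 24 and 48 h and APOL4 had 148, 124 and 629, with 0 in both controls for each. APOL6 had 598, 397 and 1140 counts and 0 in both controls. Each was lowest of the biopsies at 24 h and highest at 48 h.

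SLAMF8 and SLAMF7 are receptors of the SLAM family on macrophages and, for SLAMF7, on NK and plasma cells. SLAMF8 had 0 and 1 counts in the controls, 191 at 12 h, 126 at 24 h and 834 at 48 h, a ratio of 7.80 (6.46 to 9.49). SLAMF7, picked after its values were seen, had 0 in both controls, 174 at 12 h, 126 at 24 h and 739 at 48 h, a ratio of 6.91 (5.72 to 8.42). Both ratios lay within the range of the interferon-gamma list. APOC1, an apolipoprotein made by macrophages and liver, moved even more, with 1 count at 12 h, 14 at 24 h and 193 at 48 h and 0 in both controls.

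On the list of chemokine ligands, which does not hold CXCL11, CXCL16, a chemokine of macrophages, had the most counts, with 144, 96 and 353 at 12, 24 and 48 h and 0 in both controls. CCL3, a chemokine of activated macrophages, had 85, 46 and 152 counts, and the cytokine gene IL1B had 52, 29 and 85, with 0 in both controls for each. IFNG, which encodes interferon gamma itself, had 34, 16 and 56 counts and 0 in both controls. Its level at 48 h was 4.13 times that at 24 h (2.33 to 7.71) and 1.86 times that at 12 h. In all, 10 of 24 chemokine ligands and 9 of 24 cytokines were inside the rule. None of the 11 other chemokine receptors on the lists was, since 8 had more than 3 control counts and 3 had under 10 counts at 48 h.

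**Figure D3:**
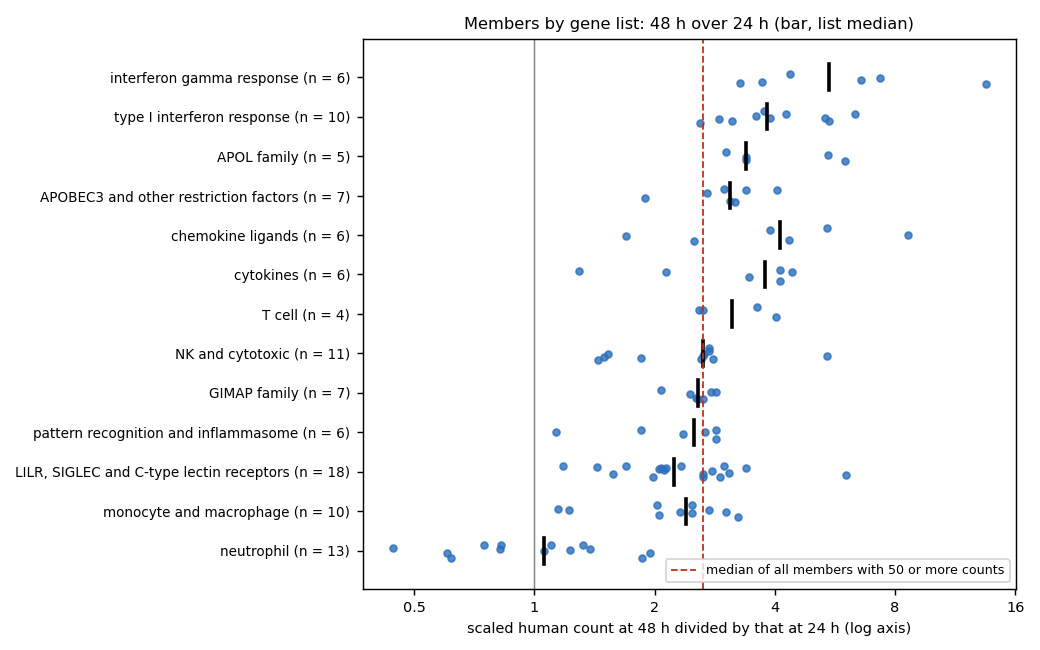
Scaled human-table count at 48 h divided by that at 24 h (horizontal log axis), 1 point per gene with 50 or more counts at those times together, with the list median as a black bar. The dashed line is the median of all 464 such genes, 2.64. The interferon-gamma median is 5.47, the NK median is 2.65 and the neutrophil median is 1.06.

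Mitochondrial, zinc finger and noncoding genes formed further groups inside the rule. Of the 13 mitochondrial protein genes, 6 were inside the rule, led by MT-CO3, a subunit of cytochrome c oxidase, with 2 and 0 counts in the controls, 5517 at 12 h, 4860 at 24 h and 8803 at 48 h. MT-ND2, a complex I subunit, had 0 in both controls and 1900, 1661 and 3313 counts at 12, 24 and 48 h. The other 7 had more than 3 control counts and were outside the rule. Zinc finger genes with ZNF symbols numbered 114 of 675, or 16.9%, a group picked after the values were seen. ZNF267 led them with 126, 81 and 205 counts at 12, 24 and 48 h and 0 in both controls. Antisense symbols gave 61 of 1536 genes, or 3.97%, and LINC symbols 34 of 2144, or 1.59%, beside 1.9% of all human-table genes. Whether counting used strand is not given in the sources used here, so antisense counts cannot be told from those of their partners. The immune noncoding RNA HCP5, within the HLA region, had 165, 82 and 303 counts and 0 in both controls.

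The complement regulators CD46, CD55 and CD59, which shield human cells from complement, were also picked after their values were seen, because donor pigs for xenotransplantation can carry them as transgenes. CD46 had 0 counts in both controls, 418 at 12 h, 257 at 24 h and 570 at 48 h. CD55 had 0 in both controls, 337 at 12 h, 234 at 24 h and 246 at 48 h. CD59 had 0 and 1 in the controls, 30 at 12 h, 29 at 24 h and 77 at 48 h. All 3 were thus at or near 0 in untransplanted kidney. The labels do not give the genotype of the control kidney, and whether it came from the same donor as the graft is not stated.

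Most of these genes were already there in the earlier biopsies, which the rule did not use. At 12 h, 758 of the 1123 had 10 or more counts, where 2.18% of all genes within the control limit had that many. At 24 h, 619 had 10 or more, with 1.69% of all genes within the limit. A single read at least was counted for 1092 of the genes at 12 h and 1093 at 24 h, against 361 and 305 in the controls. These libraries share the controls and the mapping of the gene with the 48 h biopsy, so the counts describe the genes and are no independent test.

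The common course over these single cores was a dip at 24 h. In scaled counts 868 of the 1123 genes were lowest of the 3 biopsies at 24 h. The rule asked for counts at 48 h, which made that biopsy unlikely to be the lowest. Of 376 genes with enough counts at 12 and 24 h, 354 were lower at 24 h, with a median ratio of 0.654. Neither share was computed over all human-table genes. The sum at 48 h was 2.38 times that at 24 h (2.36 to 2.40) and 1.63 times that at 12 h (1.61 to 1.64). Over 15990 human-table genes with enough counts, most of them outside the rule, the median 48 h to 24 h ratio was 1.20. The rule selects for high counts at 48 h. Genes chosen on 24 h instead, with the same control limit and 10 or more counts there, numbered 669, of which 619 were in both sets. Their median ratio was 2.36, and 87.3% of them were higher at 48 h than at 24 h.

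Between 24 h and 12 h, a comparison that the rule did not use, no gene inside the rule passed the quasi-likelihood test of edgeR, adjusted by Benjamini-Hochberg over all 19443 genes tested. Of all genes tested, 0.0257% were called higher and 0.0257% lower. At an unadjusted p under 0.05, 7 of the 1100 genes tested were higher and 56 lower, or 0.636% and 5.09%, beside 1.3% and 1.64% of all genes tested, and DESeq2 called none of the 1100 in either direction. The median log2 difference of the genes was -0.61, beside -0.15 over all genes tested. The spread in this test came from the control pair alone, with 1 residual degree of freedom, and the single biopsies were assumed to vary like that pair. With TMM factors of the human table, APOBEC3A (log2 -1.94, adjusted p = 0.000426 by edgeR) was called lower at 24 h, as were FOSL1, LGI2 and LILRA1. APOC1 was called higher (3.70, adjusted p = 0.0465 by edgeR). Pig FOSL1 had 7 and 2 counts in the controls, 883 at 12 h and 312 at 24 h. Pig LGI2 had 0 and 5 in the controls, 173 at 12 h and 60 at 24 h. The calls of FOSL1 and LGI2 therefore cannot be told apart from change in the graft. APOBEC3A, an interferon-induced deaminase of monocytes, had 0 and 1 counts in the controls, 179 at 12 h, 44 at 24 h and 151 at 48 h.

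The pig table holds graft genes of the same symbol for 440 of the 1123 genes, and the other 683 had none under that symbol. Among the 683 are mitochondrial genes such as MT-CO3 and MT-ND2, whose graft counterparts the pig table holds under other symbols. No bound was set for them. For genes with such a counterpart, the controls give a scale for the human-table counts that graft reads could leave. This figure, called the graft bound, was set at the control limit of 3 counts, divided by the pig-table counts of that symbol in both controls and multiplied by its pig-table count at 48 h. It was under 10% of the human count at 48 h for 227 genes, between 10% and 100% for 144, and 100% or more for 45, while 24 had no pig count in the controls to set it. It carries the counting error of a few reads and is no strict maximum. Human reads counted on the pig gene at 48 h would raise it. Where pig counts were large in the controls, the bound was small. CTSD, the lysosomal protease cathepsin D, had 15413 and 16131 pig counts in the controls with 0 human counts in both, and 871 human counts beside 16133 pig counts at 48 h. Its bound was 1.53 counts. IFNGR1, a chain of the interferon gamma receptor, had 2042 human counts at 48 h and a bound of 3.40.

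The bound did not separate other genes from the graft. COL17A1, a collagen of epithelial attachment, had 405 human counts at 48 h, against 1 and 0 in the controls, while its pig counts were 2729 at 48 h, against 24 and 16 in the controls. Human counts per 100 pig counts of COL17A1 were 16.7, 13.3 and 14.8 at 12, 24 and 48 h, and its bound was 50.5% of the human count. LBP, the lipopolysaccharide-binding protein, had 172 human counts at 48 h, against 1 and 0 in the controls, beside 9614 pig counts, against 31 and 18 in the controls, and its bound was 342% of the human count. Both genes, picked after their values were seen, cannot be told apart from graft genes that were nearly silent in the controls.

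The same limit holds for cell cycle genes. CENPF, a kinetochore protein, had 3 and 0 counts in the controls, 5 at 12 h, 8 at 24 h and 199 at 48 h, beside 1300 pig counts at 48 h, against 36 and 32 in the controls, and a bound of 28.8% of its count. ASPM, a spindle protein, had 97 human counts at 48 h and a bound of 90.5%. MKI67, the proliferation antigen Ki-67, had 1 and 0 counts in the controls, 1 at 12 h, 6 at 24 h and 120 at 48 h, and no pig-table gene of that symbol, so no bound could be set. The other 19 of 20 proliferation genes had more than 3 control counts. Human and graft cell division cannot be told apart in these counts.

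**Figure D4:**
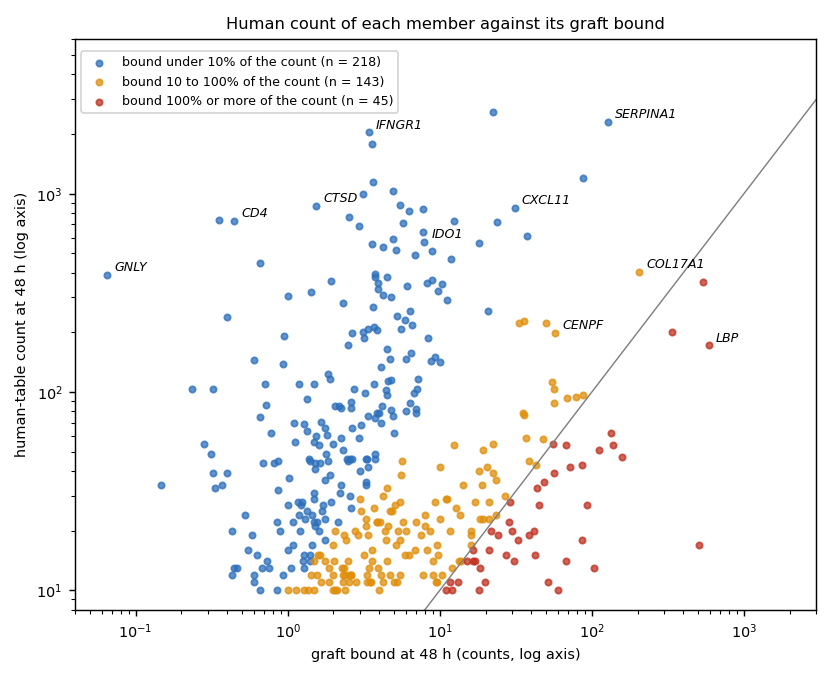
Human-table count at 48 h (vertical log axis) against the graft bound in counts (horizontal log axis), 1 point per gene with pig-table counts of the same symbol in the controls and at 48 h. The line marks equality. Blue genes have a bound under 10% of their count, yellow genes 10% to 100% and red genes 100% or more. Genes without a pig-table symbol or without a bound above 0, and genes of common inherited presence or absence, are not plotted. GNLY, CD4 and CTSD lie far above the line, and LBP lies below it.

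Pig-table counts of lymphocyte genes moved the other way for some of these genes. In the pig table, 388 of the same-symbol genes were tested by edgeR with TMM factors, and at 48 h against the controls 232 were called higher and 46 lower. Of all 12857 pig genes tested, 26.8% were called higher and 24.4% lower, or 3443 and 3140 genes, a split that was 3512 against 553 without TMM factors. Without them, 237 of the same-symbol genes were called higher and 11 lower. Pig GNLY had 24 counts at 48 h, against 518 and 591 in the controls, a log2 difference of -4.80 ± 0.35 (SE, adjusted p = 1.13e-40 by edgeR), while human GNLY had 389, against 0 and 0. Pig CD4 had 18 counts, against 71 and 50 (-2.0 ± 0.47, adjusted p = 8.38e-05), while human CD4 had 728, against 1 and 0. Pig GNLY was also called without TMM factors (adjusted p = 2.23e-09) and by DESeq2 (4.35e-21), while pig CD4 was not called by either (0.0664 and 0.118).

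Pig CD2 and CD8A were lower as well. CD2 had 131 pig counts at 48 h, against 348 and 254 in the controls (-1.46 ± 0.28, adjusted p = 7.94e-07 by edgeR). CD8A had 52, against 149 and 136 (-1.72 ± 0.35, adjusted p = 3.26e-06). Both calls held in DESeq2 (0.00375 and 0.0221) and were lost without TMM factors (0.158 and 0.0888). Pig PRF1, with 14 counts against 35 and 29 (-1.45 ± 0.54, adjusted p = 0.0169), was called by neither alternative (0.314 without TMM factors and 0.394 by DESeq2). For these 5 genes the human count at 48 h thus stood beside a lower pig count than in the controls, though all but GNLY lost the call under at least 1 alternative.

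Not every counterpart fell, but pig-table counts at 48 h may hold recipient reads. Human counts per 100 pig counts of SERPINA1 were 2780, 2729 and 2713 at 12, 24 and 48 h. Pig SERPINA1 had 2 and 0 counts in the controls and 85 at 48 h. For CXCL11 the human counts per 100 pig counts were 24.9, 15.3 and 216.5. How far recipient reads entered the pig counts was not tested. Pig NKG7 had 518 counts at 48 h, against 144 and 179 in the controls (1.40 ± 0.22, adjusted p = 2.95e-09 by edgeR), and pig CD14 had 1773, against 215 and 213 (2.78 ± 0.18, adjusted p = 6.37e-54). Pig CXCL11 had 393, against 16 and 22 (4.09 ± 0.29, adjusted p = 1.03e-43), so this chemokine was higher in both tables at 48 h. Within the xenograft the tables differed in time: pig CXCL11 had 610 counts at 12 h, 896 at 24 h and 393 at 48 h, while human CXCL11 had 152, 137 and 851. Pig IDO1 had only 29 counts at 48 h, against 6 and 5 in the controls (2.11 ± 0.62, adjusted p = 0.00172 by edgeR, 0.256 by DESeq2), beside 574 human counts. Human IDO1 and human CXCL11 therefore exceeded their pig counterparts at 48 h alone for CXCL11 and in every biopsy for IDO1. These p-values rest on 1 biopsy and on the spread of a control pair that may be technical.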

How the data were processed

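Counts per gene symbol were deposited by the authors in 2 tables, 1 for a pig genome with 15235 symbols and 1 for the human genome. The deposited counts are whole numbers with different totals, and hg38 is the build named per the submitters' processing notes. The aligner, counter, strand setting and any competition between genomes are not given in the sources used here. XIST, TSIX and Y-linked genes were removed from the human table, which left 59198 symbols. A further 20 genes inside the rule, of common inherited presence or absence, were counted but not named. No column was left unmatched to a library.

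The genes and lists were chosen with earlier results of these data known. Named were the genes with the most counts at 48 h overall and in each of 30 lists (539 symbols), those with extreme time ratios, those with the most pig control counts, and those near the limits, with others picked after their values were seen, as stated beside them. Ratios over time needed 50 summed counts and carry exact 95% intervals for counting error only, since no molecular identifiers separate PCR copies from molecules.

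Tests used edgeR 4.0.16 in R 4.3.3 (glmQLFit robust, filterByExpr with minimum count 10 and total 15), with 1 coefficient per time and Benjamini-Hochberg adjustment at 0.05. Library size was the pig-table total for the human table and TMM was used for the pig table. Each SE is the absolute log2 difference over the root of F. DESeq2 1.42.0 was an alternative. The spread between the controls exceeded sampling noise (chi-square per degree of freedom 14.5 over 16141 human genes and 218 over 12327 pig genes). Counts were also simulated with 1 fixed dispersion for every gene, not estimated from these libraries. On them, the 24 h against 12 h test of 18859 human genes recovered 95% of genes changed 4-fold and 100% of those changed 16-fold. It made 9 false among 204 calls. The pig test at 48 h on 12725 genes recovered 100% of both, with 11 false among 211 calls. These shares hold for that dispersion and do not give the power in the real libraries. Of the genes without a pig-table symbol, 159 are in the RefSeq (Sscrofa11.1) or Ensembl name tables, so absence from the pig table is not absence from the pig. Intervals, ratios and figures were made with Python 3.11.15, SciPy 1.17.1 and matplotlib 3.10.9.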

Additional observations from a re-analysis of the deposited data

How the results depend on the processing

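The number of genes inside the rule followed its limits: 1123 as described, 620 with no control count allowed, 1806 with up to 10, 1921 with a minimum of 5 counts at 48 h, 703 with 20 and 363 with 50. Leaving out a control gave between 1457 and 1634 genes. With a minimum of 20 counts, 504 genes were found at 12 h and 392 at 24 h. The summed 48 h to 24 h ratio was 2.06 with human-table totals, 2.31 with pig totals without mitochondrial genes, and 2.42 without human mitochondrial genes, the last alternatives added after seeing the data. Also added then, dropping genes with a graft bound of 10% or more left 934, and of 100% or more 1078. For 24 h against 12 h, TMM called 1 gene inside the rule higher and 4 lower, against 0 and 0. Over all human-table genes at 48 h against controls, a contrast the rule used, edgeR called 8522 higher and 403 lower, TMM 4464 and 3288, and DESeq2 2150 and 1678. The median log2 difference of all human genes in that contrast was 0.98 with pig totals and 0.05 with TMM. In the pig table, 11 same-symbol genes were called lower without TMM, and DESeq2 called 149 higher and 18 lower. Without TMM the median of all pig genes was 0.56, against 0.02 with it. No paired analysis was possible, because each time after transplantation was a single core and no link between the controls and the graft is given. Leaving out a control leaves no residual degrees of freedom, so those fits gave values only.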
